A study of Mus musculus with 8 samples.

Results

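In spheres grown from early mammary lesions, ZFP281 binding regions were in places packed together, and 601 of 8722 regions (6.89%) stood in 121 chains of 4 or more. A region is a group of binding summits at most 200 bp apart, merged over all lists, which gave 19317 regions in the series. Regions with a summit in at least 2 of the 3 early lesion (EL) libraries were kept, and these are called EL regions below. Neighbouring EL regions at most 12.5 kb apart were joined into a chain, and the regions of chains with at least 4 were selected. The EL summits thus chose these regions, so their EL values are given as a description and without a test. Of the other 8121 EL regions, 5607 had no neighbour within reach and 2514 stood in chains of 2 or 3.

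ZFP281 was immunoprecipitated with its chromatin and sequenced from mammary spheres of MMTV-HER2/Neu mice on the FvB background, in which the mammary tumour virus promoter drives the HER2/Neu oncogene in the mammary gland. EL spheres came from animals of 14 to 18 weeks with no palpable tumour, and primary tumour (PT) spheres from animals older than 20 weeks that carried tumours. Cells of both groups carried the transgene, were labelled as breast cancer cells and were grown for 7 days in mammosphere medium without attachment. Each group had 3 libraries, called biological replicates, with no statement of which animals or how many gave each, and 1 input that was not analysed here. The tissue label of the EL samples reads mammary lung. Summit lists hold no expression, so the labelled cells could not be checked against marker transcripts.

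ZFP281 is a zinc finger transcription factor with a known part in the control of pluripotency and a preference for G-rich DNA. Sites of a factor that lie close together along a chromosome are often described as clusters, and 12.5 kb is the distance commonly used to join neighbouring enhancers into large domains. Such domains are known from genes that control cell identity, among them genes of other transcription factors.

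Promoter windows gave the DNA sequence at a small part of the clustered regions only. Of the 601 clustered regions, 40 overlapped 44 promoter windows of 41 genes, where a window runs from 250 bases before a start site to 50 after it. The sequences below are from RefSeq, build GRCm38.p6 (mm10), and give the 250 bases before the start site, 5′ to 3′ on the strand of the gene. Capitals mark the stretch between the outermost summits of the merged region, as far as it reaches into these bases. The first 3 belong to genes with a summit there in all 6 libraries. Junb had 1 PT summit there. The Sox4 window held 1 EL summit and the Pdgfra window 3, in both without a PT summit. The start sites of the Socs3 and Pdgfra windows lie inside the annotated genes and not at their 5′ boundaries. The windows are Irf2bpl (chr12:86884815-86885064, minus strand), Socs3 (chr11:117969367-117969616, minus strand), Plekhg2 (chr7:28372663-28372912, minus strand), Junb (chr8:84978749-84978998, minus strand), Sox4 (chr13:28953700-28953949, minus strand) and Pdgfra (chr5:75152001-75152250, plus strand).
Irf2bpl: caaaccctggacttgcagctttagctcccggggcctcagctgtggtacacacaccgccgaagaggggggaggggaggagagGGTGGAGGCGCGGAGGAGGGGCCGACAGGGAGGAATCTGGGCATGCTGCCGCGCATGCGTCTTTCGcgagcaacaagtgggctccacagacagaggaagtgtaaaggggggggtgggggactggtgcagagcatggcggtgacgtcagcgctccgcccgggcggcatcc
Socs3: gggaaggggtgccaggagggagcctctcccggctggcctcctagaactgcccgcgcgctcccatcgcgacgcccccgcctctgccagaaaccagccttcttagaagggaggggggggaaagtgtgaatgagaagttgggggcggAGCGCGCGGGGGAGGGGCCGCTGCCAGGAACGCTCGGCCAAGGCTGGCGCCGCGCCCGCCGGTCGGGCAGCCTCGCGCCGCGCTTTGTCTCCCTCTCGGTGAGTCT
Plekhg2: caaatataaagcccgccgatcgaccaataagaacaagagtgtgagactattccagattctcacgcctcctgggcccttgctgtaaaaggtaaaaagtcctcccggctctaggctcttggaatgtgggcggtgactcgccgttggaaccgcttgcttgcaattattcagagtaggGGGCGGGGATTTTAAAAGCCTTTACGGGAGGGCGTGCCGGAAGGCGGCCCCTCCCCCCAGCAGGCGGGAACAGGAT
Junb: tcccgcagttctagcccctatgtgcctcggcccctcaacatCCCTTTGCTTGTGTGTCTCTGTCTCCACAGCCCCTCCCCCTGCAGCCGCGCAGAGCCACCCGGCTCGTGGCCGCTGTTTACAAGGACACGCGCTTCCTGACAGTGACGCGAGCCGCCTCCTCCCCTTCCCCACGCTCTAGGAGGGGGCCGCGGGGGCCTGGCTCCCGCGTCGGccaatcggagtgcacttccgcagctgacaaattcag
Sox4: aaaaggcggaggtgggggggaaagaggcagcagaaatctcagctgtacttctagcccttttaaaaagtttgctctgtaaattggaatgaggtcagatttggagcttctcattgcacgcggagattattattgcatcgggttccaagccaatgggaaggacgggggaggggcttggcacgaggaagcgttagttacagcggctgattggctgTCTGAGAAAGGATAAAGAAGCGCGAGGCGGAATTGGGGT
Pdgfra: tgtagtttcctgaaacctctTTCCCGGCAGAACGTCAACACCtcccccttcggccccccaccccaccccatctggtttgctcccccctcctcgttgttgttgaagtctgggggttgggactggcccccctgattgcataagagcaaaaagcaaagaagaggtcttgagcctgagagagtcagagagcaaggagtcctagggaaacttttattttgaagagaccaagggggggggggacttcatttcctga

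A G-rich run of letters was more frequent in windows with a clustered region than in all windows, but less frequent than in windows with any EL region. The letters GGGGAGGGG, searched on both strands (CCCCTCCCC on the other), were found in 12 of the 44 windows with a clustered region (27.3%). They were found in 35.7% of the 1501 windows with any EL region and in 6.37% of all 32851 windows. In Socs3 the match begins at base 153 of the printed sequence, within the capitals. The match begins at base 66 in Irf2bpl and at base 162 in Sox4, in both outside the capitals. Plekhg2 (base 222) and Junb (base 72) hold it on the opposite strand, within the capitals, and Pdgfra has no match in its window. The printed windows thus hold the run more often than the 44 windows do. The median GC content was 60.3% over windows with a clustered region, 66.3% over windows with any EL region and 52.7% over all windows. A match is a description of the letters and does not show where the protein bound.

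The score of a summit is the authors' own, and it is given here as a percentile of its list, with 100 the highest. Values of 3 libraries follow the order of their replicate numbers. At the Irf2bpl promoter the EL percentiles were 98.5, 99.5 and 98.9 and the PT percentiles 91.7, 94.7 and 97.1, high in every library. At the Socs3 promoter EL stood at 90.2, 92.6 and 73.6 and PT at 38.7, 81.7 and 91.5, so the groups overlapped. At the Plekhg2 promoter EL stood at 92.9, 95.3 and 85.1 and PT at 73.4, 83.7 and 88.6. The Junb promoter stood at 87.4, 91.3 and 69.2 in EL and at 71.6 in PT replicate 3. At the Pdgfra window, a gene for a growth factor receptor of mesenchymal cells, the EL summits were of middle rank, at 35.6, 51.7 and 30.6. A second clustered region, chr5:75151228-75151285, lay 66 bp from the 5′ boundary of Pdgfra and ranked higher, at 50.7, 86.9 and 79.5 in EL, with a PT summit in replicate 3 at 45.1. Sox4 is a transcription factor linked to epithelial-mesenchymal transition (EMT). In the region that overlaps its promoter window the EL summits were of low rank, at 9.30 and 15.8 in EL replicates 2 and 3. Of these 2 summits, 1 lay in the window and the other 115 bp downstream of the start site, outside it.

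The chains were short stretches with a few regions each. Of the 121 chains, 56 had 4 regions, 38 had 5, 16 had 6, 6 had 7 and 2 had 8, and 1 each had 10, 11 and 12. From first to last summit they spanned 3.31 to 45.2 kb, with a median of 17.6 kb, and the 480 gaps inside them had a median of 3.58 kb. At the edge of the rule, the widest gap inside a chain was 12.492 kb and the narrowest one that ended a chain was 12.508 kb. Chains of 3 regions, just outside the rule, and chains of 4, just inside, had a PT summit in 51.4% and 50.4% of their regions. Their median EL percentiles, each region's mean over the EL libraries with a summit, were 57.9 and 57.0.

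**Figure D1:**
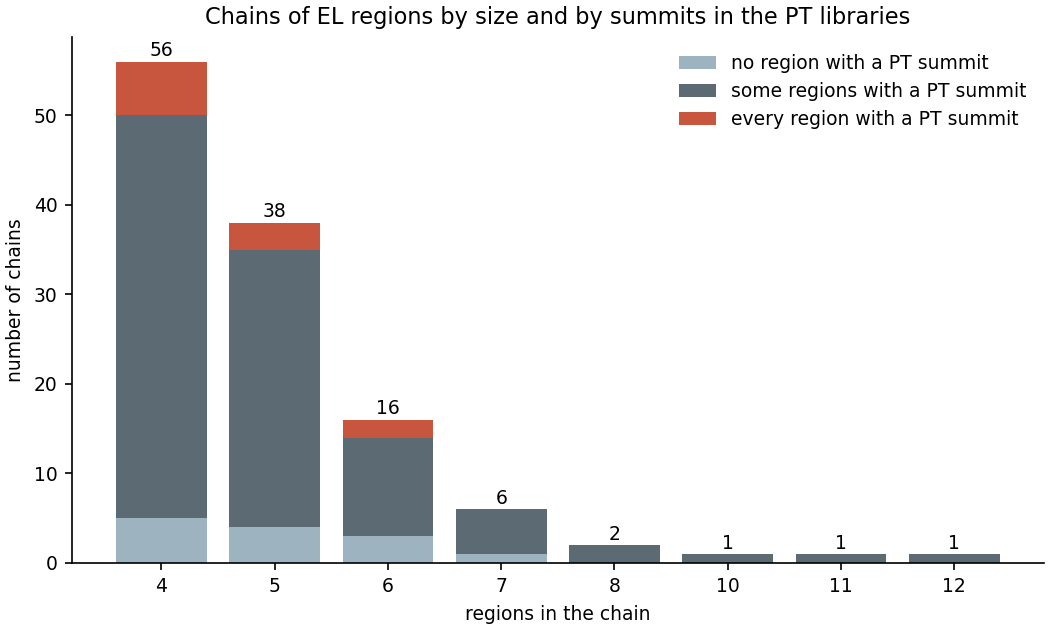
Number of chains (vertical axis) by the number of EL regions in the chain (horizontal axis), split by how many of the regions had a summit in at least 1 PT library; the number above each bar is the total. Chains of 4 and 5 regions make up 56 and 38 of the 121 chains, and most chains of each size up to 5 had PT summits at some of their regions.

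The share of clustered regions with a PT summit was close to that of all EL regions. A PT summit was present in at least 1 library at 292 of the 601 clustered regions (48.6%), beside 49.0% of all 8722 EL regions. All 3 PT libraries had a summit at 124 (20.6%), beside 21.2% of all EL regions. Single PT libraries accounted for 99 regions, pairs of them for 69, and 309 regions had no PT summit. PT replicate 1 had a summit at 25.1% of the clustered and 26.2% of the other EL regions. In PT replicate 2 the shares were 34.6% and 33.2%, and in PT replicate 3 they were 41.6% and 44.2%. The difference, clustered minus other, was -1.04, 1.45 and -2.56 percentage points, with a mean of -0.718 ± 2.02 (SD, n = 3; exact sign-flip permutation over libraries, two-sided, p = 0.75, where 0.25 is the smallest p that 3 libraries allow). The sign is not stable: it was 0.106 without PT replicate 3, and 1.06 in lists cut to the 2897 top-scoring summits each, where 48 clustered regions were left.

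PT summits at clustered regions were of middle rank, as at other EL regions. The median percentile at clustered regions was 57.1, 54.4 and 59.97 in PT replicates 1, 2 and 3. At the other EL regions it was 55.6, 57.9 and 62.5. The mean difference was -1.52 ± 2.67 percentile points (SD, n = 3; exact sign-flip permutation, two-sided, p = 0.5). Without EL replicate 2, which had the longest list and left 220 clustered regions, the difference was 5.57, and without EL replicate 1 it was 1.496.

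The position of clustered regions relative to genes, and their PT share by position, were set beside those of the other EL regions. Of the clustered regions, 111 (18.5%) were within 1 kb of a boundary of a protein-coding gene, 309 (51.4%) were deeper inside a gene and 181 (30.1%) were between genes. For the other EL regions the shares were 33.3%, 40.2% and 26.5%. These positions belong to regions that the EL summits selected and carry no test. Near boundaries, 55.0% of the clustered and 65.8% of the other EL regions had a PT summit in at least 1 library. Inside genes the order was turned, with 46.6% and 42.3%, and between genes the shares were 48.1% and 38.3%.

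Library by library, the same order held in each place. Near boundaries the difference, clustered minus other, was -14.8, -12.9 and -12.3 percentage points in PT replicates 1, 2 and 3, with a mean of -13.4. Between genes it was 11.7, 14.4 and 8.02 points (mean 11.4), and inside genes it was 1.15, 4.51 and 1.46 points (mean 2.37). Over 5 kb from every boundary, where 304 clustered regions lay, it was 3.89, 8.60 and 5.34 points (mean 5.94). Each of these 4 differences had the same sign in 3 of 3 libraries and the exact sign-flip permutation gave p = 0.25 (two-sided), the smallest possible, so none could pass 0.05.

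The PT share climbed with the EL score in clustered and other regions alike. With all EL regions ordered by mean EL percentile and divided into 5 equal parts, 17.7% of the clustered regions in the lowest part had a PT summit, then 28.3%, 45.0%, 62.5% and 76.7% in the highest. The other EL regions stood at 22.4%, 32.1%, 46.5%, 59.8% and 85.5%. Compared within these parts, the difference was -3.98, -1.64 and -5.47 points in PT replicates 1, 2 and 3 (mean -3.70; exact sign-flip permutation, two-sided, p = 0.25, the smallest possible). Over the 121 chains the mean EL percentile and the share of regions with a PT summit had a Spearman correlation of 0.510 and a Pearson correlation of 0.554, given as a description, since chains share the same 6 lists.

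**Figure D2:**
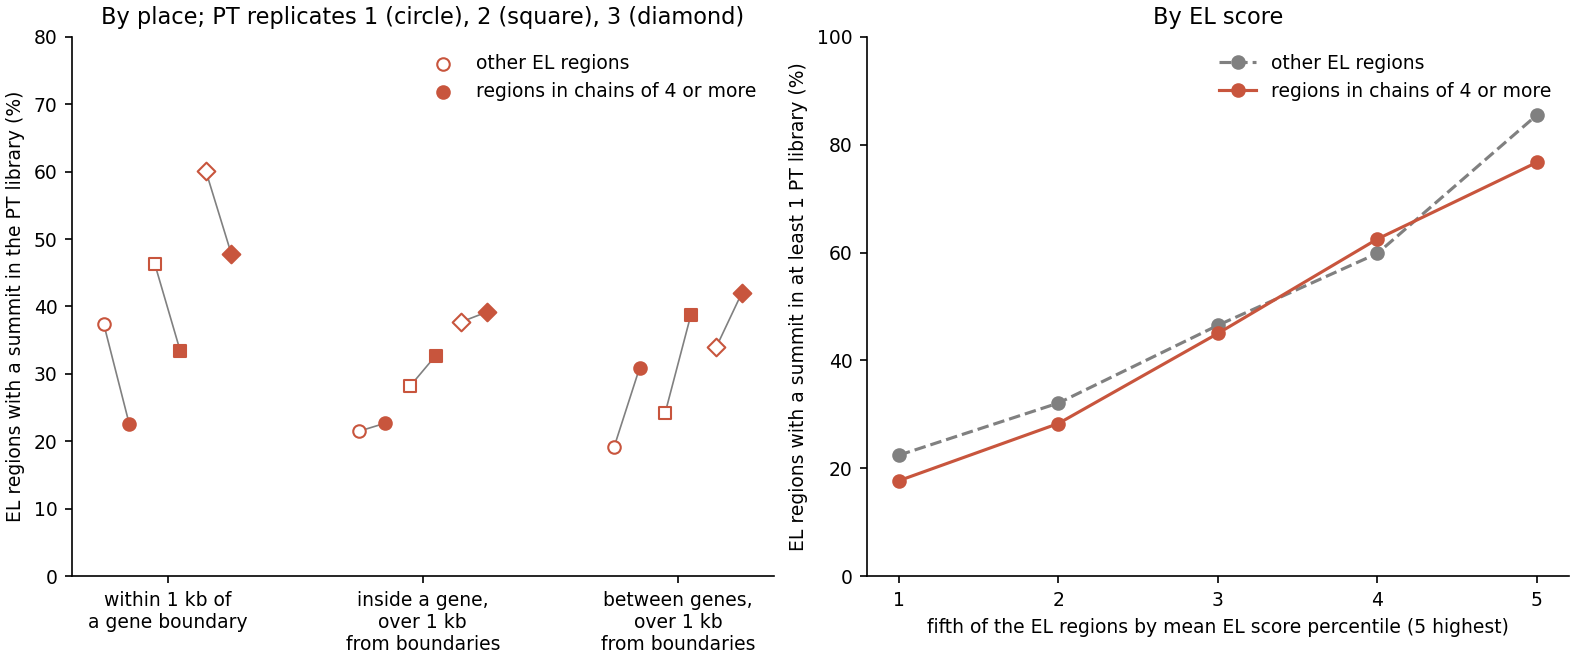
Left, percent of EL regions with a summit in each PT library (vertical axis) by place relative to protein-coding genes, with open symbols for other EL regions and filled symbols for regions in chains of 4 or more, joined by a line per PT replicate. Filled symbols lie below open ones near boundaries and above them in the other 2 places. Right, percent with a summit in at least 1 PT library in the 5 equal parts of the EL regions by mean EL score percentile; the lines run from 17.7% to 76.7% for clustered and from 22.4% to 85.5% for other EL regions.

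Between the chains, PT summits were unevenly spread. In 13 chains with 65 regions no region had a PT summit, in 11 chains with 51 regions every region had one, and 97 chains were mixed. In 74 chains at least 1 region had a summit in all 3 PT libraries. The mean EL percentile per chain had a median of 51.2 (20.9 to 70.2) in the 13 chains and of 73.7 (62.6 to 83.8) in the 11, so the ranges overlapped. Since EL summits selected the regions, EL counts above PT counts within a chain follow in part from the selection. In lists of equal length, 36.1%, 34.1% and 38.1% of the clustered regions had an EL summit and 25.1%, 24.8% and 23.6% a PT summit. The other EL regions, selected alike, had 32.4%, 32.6% and 32.2% with an EL summit and 26.2%, 25.9% and 27.2% with a PT summit. Of the 20 chains named below, the plot of named chains by library gives the number of regions with a summit in each.

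**Figure D3:**
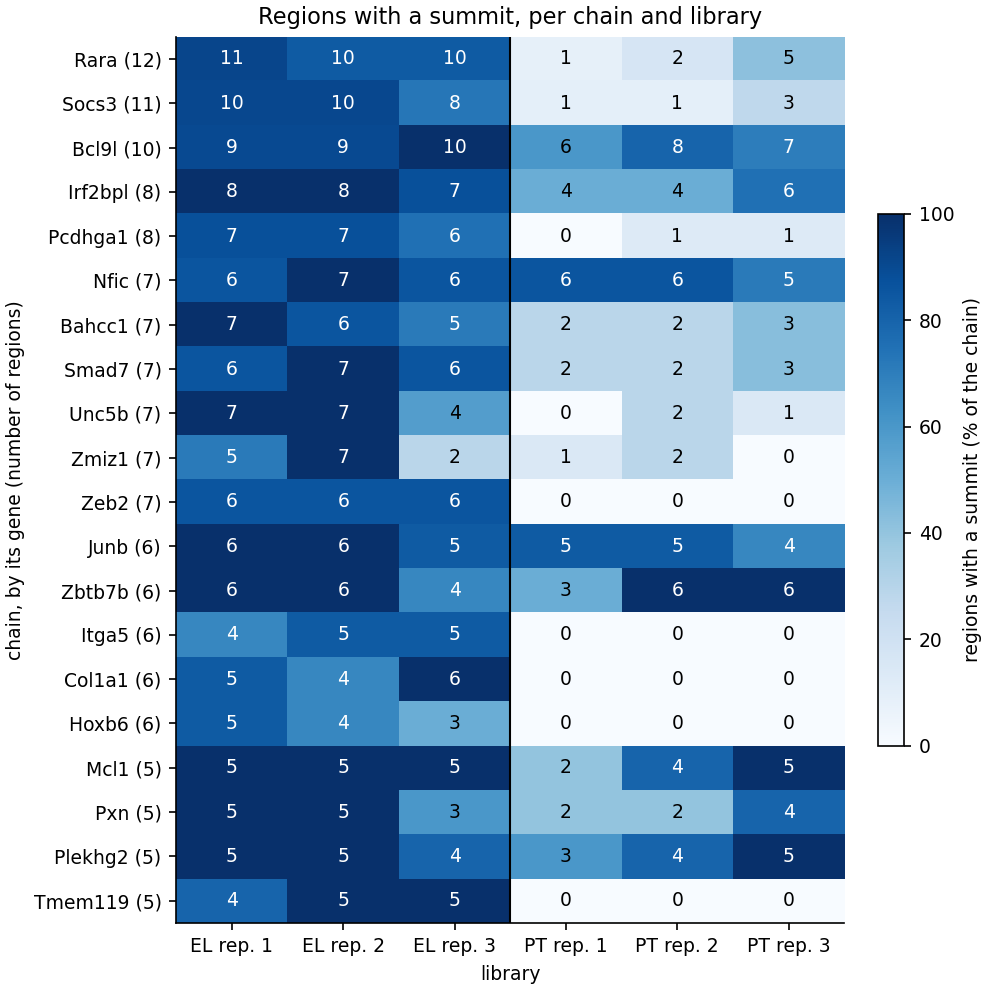
Rows are the named chains with their number of regions in brackets, columns are the 6 libraries, the number in a cell counts the regions with a summit in that library, and the shade gives that count as percent of the chain. The rows of Zeb2, Itga5, Col1a1, Hoxb6 and Tmem119 are 0 in all 3 PT columns, while Nfic has 6, 6 and 5 of 7 regions there.

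The largest chain lay over Rara, the gene of retinoic acid receptor alpha, a nuclear receptor. Its 12 regions covered chr11:98925591-98965844 (mm10), and 11 were inside the gene or within 1 kb of it. The EL libraries had a summit at 11, 10 and 10 of them, and the PT libraries at 1, 2 and 5. PT replicate 3 thus held most of the PT summits of the chain, and 7 regions had none. The region at chr11:98963700-98963869, inside the gene, had a summit in every library, at percentiles of 85.1, 89.6 and 67.8 in EL and of 14.5, 59.8 and 78.0 in PT. In lists of equal length the EL libraries had 5, 3 and 6 summits in the chain and the PT libraries 1, 1 and 3, which overlap.

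The second largest chain surrounded Socs3, an inhibitor of cytokine signalling through JAK and STAT proteins. It had 11 regions over chr11:117930939-117975991, of which 8 lay between genes, 7 of them beyond the 3′ end of Socs3 at 1133 to 35116 bp. The EL libraries had a summit at 10, 10 and 8 of the 11 and the PT libraries at 1, 1 and 3. In PT replicates 1 and 2 that summit was the one at the promoter printed above. The region at chr11:117962323-117962378, beyond the 3′ end, ranked highest in the chain, at 98.1, 99.1 and 96.9 in EL, and had a PT summit in replicate 3 alone, at 37.1. At equal list lengths 5, 5 and 4 regions had an EL summit and 1, 1 and 1 a PT summit.

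The chain of Bcl9l, a coactivator of beta-catenin in Wnt signalling, had 10 regions over chr9:44478767-44501616, 9 of them inside the gene. Its EL counts were 9, 9 and 10 and its PT counts 6, 8 and 7, and 5 regions had a summit in all 3 PT libraries. The strongest of these, chr9:44498876-44498960, stood at 98.1, 98.7 and 96.5 in EL and at 89.8, 97.2 and 93.4 in PT. With lists of equal length, EL kept 6, 6 and 8 and PT kept 6, 6 and 5. Irf2bpl, which encodes a nuclear protein related to an interferon regulatory factor partner, had a chain of 8 regions over chr12:86883029-86906725. Of these, 6 lay between genes on the 5′ side, up to 21843 bp from the gene. EL counts were 8, 8 and 7 and PT counts were 4, 4 and 6.

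Another chain of 8 regions lay in the protocadherin gamma cluster on chromosome 18, whose genes encode adhesion molecules and share a stretch of DNA, so 24 symbols hold 7 of the regions equally. Summits were present at 7, 7 and 6 regions in EL and at 0, 1 and 1 in PT. The chain in Smad7, an inhibitor of TGF-beta signalling that is itself a target of the pathway, had 7 regions within the gene or 1 kb of it, with 6, 7 and 6 in EL and 2, 2 and 3 in PT. In equally long lists these were 3, 2 and 3 against 2, 2 and 0.

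Nfic, a transcription factor of the nuclear factor I family, had 7 regions inside the gene over chr10:81401164-81426544, and its chain was close to equal in both groups. EL counts were 6, 7 and 6, and PT counts were 6, 6 and 5. Its region at chr10:81413961-81414022 was among the highest of every list, at 99.6, 99.7 and 99.3 in EL and at 98.8, 99.5 and 99.8 in PT. The 7 regions of Bahcc1, a chromatin protein gene, had summits at 7, 6 and 5 in EL and 2, 2 and 3 in PT. Those of Unc5b, a netrin receptor, had 7, 7 and 4 in EL and 0, 2 and 1 in PT. The larger chain in Zmiz1, a transcriptional coactivator, also of 7 regions, stood at 5, 7 and 2 in EL and 1, 2 and 0 in PT. At equal list lengths this chain kept 0, 0 and 0 EL summits against 1, 2 and 0 PT summits, so the order of the full lists was turned there. A smaller chain in Zmiz1 had 4 regions, 3 of them with a PT summit.

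The 13 chains without a PT summit included those of Zeb2, Itga5 and Col1a1, genes of the EMT and mesenchymal list below. The Sox4 chain, of the same list, had PT summits at 3 of 5 regions, and the Pdgfra chain at 1 of 5. Mean EL percentiles were 43.8 at Zeb2, 56.3 at Itga5 and 49.98 at Col1a1, below the median of 56.6 over all chains. Whether PT summits were rarer there than the EL scores give was not tested. The largest chain without a PT summit lay inside Zeb2, a repressor of epithelial genes in EMT, with 7 regions over chr2:45091290-45117271. Each EL library had a summit at 6 of the 7 and each PT library at 0. The percentiles were of middle rank, from 1.37 to 58.5 in EL replicate 1, from 16.1 to 86.5 in replicate 2 and from 11.1 to 50.5 in replicate 3. Of these 7 regions, equal list lengths left 1, in EL replicate 2.

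The chains at Itga5, the alpha subunit of the fibronectin receptor, and at Col1a1, a subunit of type I collagen, had 6 regions each without a PT summit, of which the genes held 4 and 2. EL counts were 4, 5 and 5 for Itga5 and 5, 4 and 6 for Col1a1. The chains were chosen for having no PT summit, so only EL counts can vary, and at equal list lengths these were 2, 2 and 2 at Itga5 and 2, 2 and 1 at Col1a1. The strongest Col1a1 region, chr11:94933727-94933782, stood at 94.0, 94.4 and 91.7 in EL, and it lay 2470 bp outside the gene. The chain at Tmem119, a transmembrane protein gene, had 5 regions with 4, 5 and 5 EL summits, of which 2, 3 and 3 were left at equal list lengths. The 6 regions of the chain at Hoxb6, a homeobox gene, were weak, with 5, 4 and 3 EL summits, a mean percentile of 26.1 and none left at equal lengths in any library. The other 8 chains without a PT summit were those of S1pr2, Kif21b, Tns3, Creb3l1, Adamts2, Nr2f1, Tns1 and Axin2, named here after their values were seen.

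Chains with a PT summit in every region were led by Junb, a component of the AP-1 transcription factor. The 6 regions of its chain were packed into 8.38 kb at chr8:84976507-84984887, 2 of them within 1 kb of a gene boundary and 4 between genes. EL counts were 6, 6 and 5, and PT counts were 5, 5 and 4. The region at chr8:84976507-84976583, just beyond the 3′ end of the gene, stood at 98.6, 99.4 and 99.4 in EL and at 98.3, 97.5 and 97.3 in PT. The promoter region printed above was the one with the fewest PT summits.

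The chain at Zbtb7b, a zinc finger transcription factor gene, had 6 regions with 6, 6 and 4 EL and 3, 6 and 6 PT summits. The chain at Mcl1, an inhibitor of apoptosis, had 5 regions with 5, 5 and 5 EL and 2, 4 and 5 PT summits. The 5 regions of Pxn, the focal adhesion adaptor paxillin, had 5, 5 and 3 in EL and 2, 2 and 4 in PT. The chain of 5 regions at Plekhg2, an activator of small GTPases, also reached its neighbour Zfp36, which encodes a factor of mRNA decay. It had 5, 5 and 4 EL and 3, 4 and 5 PT summits, and at equal list lengths each of the 6 libraries kept 3. In these 4 chains the EL and PT counts overlapped. The other 6 such chains included those of Sox12, Vmp1, Septin9, Zfp516 and Ahnak2, also named after their values were seen. The Septin9 chain meant here had 4 regions, at chr11:117265771-117270065. Larger chains of the same name, with 6 regions each, had a PT summit at only 2 and 1 of them.

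**Figure D4:**
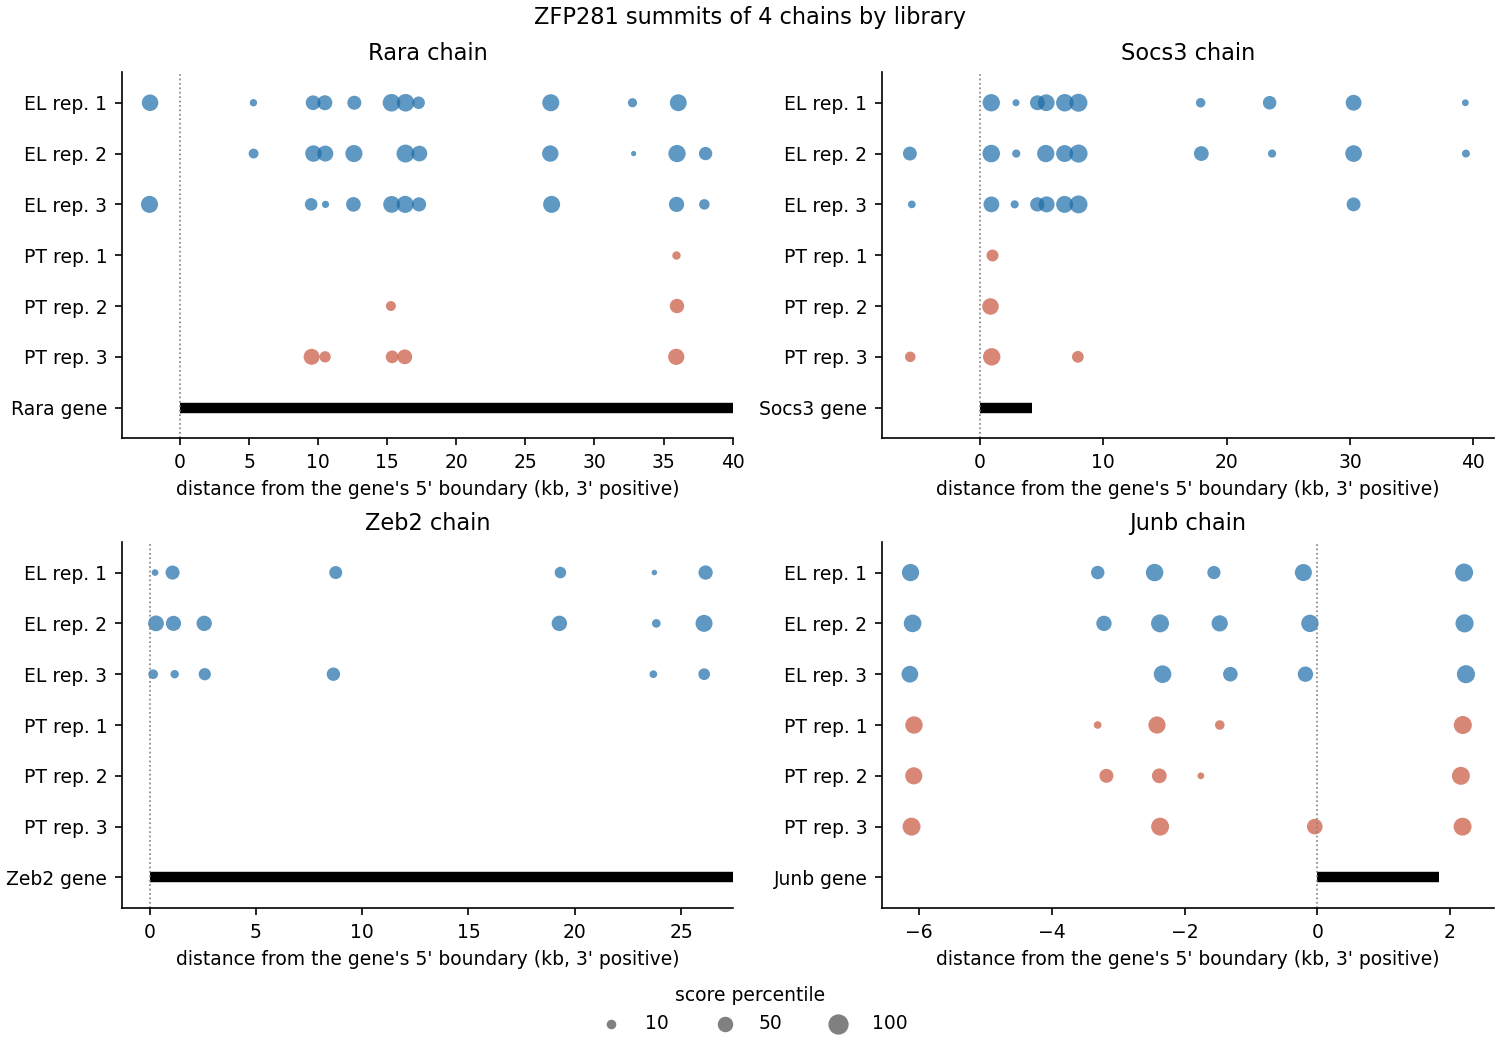
Summits of 4 chains by library (rows), placed by distance in kb from the 5′ boundary of the gene (horizontal axis, 3′ to the right); point area grows with the score percentile within the list and the black bar is the gene, cut at the edge of the panel. PT rows are sparse for Rara and Socs3, empty for Zeb2 and almost as full as the EL rows for Junb.

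A pair of chains, noticed after their values were seen, also held a microRNA gene with a widely studied product. Mature sequences from RefSeq are given with the seed, bases 2 to 8, in capitals. Mir21a (chr11:86584120-86584141, minus strand, for the mature form shown) lay within the Vmp1 chain, and Mir130a (chr2:84741116-84741137, minus strand) within the Ypel4 chain.
miR-21a-5p: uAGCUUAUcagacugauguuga
miR-130a-3p: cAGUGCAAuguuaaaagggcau
All 4 regions of the Vmp1 chain had a PT summit, and the one nearest to Mir21a, at 3031 bp, had summits in all 6 libraries. In the Ypel4 chain 3 of 4 regions had a PT summit, and the nearest to Mir130a, at 1441 bp, had 3 EL and 1 PT summit.

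Clustered regions reached few protein-coding genes. With a reach of the gene body and 1 kb beyond, 171 of 21887 genes held a clustered region (0.781%), and 4846 held any EL region (22.1%). In 41 chains 1 gene held every region, in 69 chains the leading gene held part of them and in 11 no gene held any. In all, 77 genes held 4 or more clustered regions, among them the overlapping protocadherin genes.

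Genes of the mesenchymal state, TGF-beta signalling and dormancy were described by lists chosen with earlier results of these data known. Of 36 EMT and mesenchymal genes, 28 held an EL region and 4 a clustered one: Zeb2 with 7, Itga5 with 4, Sox4 with 3 and Col1a1 with 2. Of those regions, Sox4 had PT summits at 2 and the other genes at 0. In the list for TGF-beta and BMP signalling, with 36 genes, 27 held an EL region and 3 a clustered one, namely the inhibitor Smad7 with 7 regions (4 with a PT summit), the protease Bmp1 with 3 (1) and the target gene Id1 with 1 (1). The dormancy list held 29 genes, 25 with an EL region and 4 with clustered ones. These were Rara with 11 (5 with a PT summit), the orphan nuclear receptors Nr2f2 with 4 (1) and Nr2f1 with 1 (0), and the transcription factor Bhlhe40 with 3 (2). The median gene of each of these lists held 1 EL region.

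Of 48 developmental homeobox and forkhead genes, 23 held an EL region and 7 a clustered one, all of them Hox genes, so no forkhead gene of the list held one. Hoxa3, Hoxb2 and Hoxb3 held 2 each, and PT summits were present at 0, 0 and 1 of them. Of 41 chromatin regulators, 36 held an EL region and 3 a clustered one, among them the histone demethylase Kdm6b with 5 (4 with a PT summit). In the ERBB and MAPK list, 25 of 40 genes held an EL region and only the AP-1 genes Junb and Jund held clustered ones, 2 each, all with a PT summit. In the Wnt list 18 of 38 genes held an EL region, and the feedback inhibitor Axin2 alone held clustered ones, 2, without a PT summit. Bcl9l, described above, is not on this list and held 9 clustered regions, 7 with a PT summit. In the cell cycle list 12 of 27 held an EL region, and Ccnd2, a D-type cyclin, held 3 clustered ones, 1 with a PT summit.

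The remaining lists held 0 or 1 gene with a clustered region, and in lists this short a count of 0 is near the 0.781% of all genes. No gene held a clustered region among 22 pluripotency genes and ZFP281 partners, 32 genes of epithelial junctions and keratins, 25 luminal and hormone response genes or 36 ribosomal protein genes, of which 6, 8, 3 and 6 held an EL region. Of marker lists of other cells, 26 leukocyte and 18 endothelial genes held none, and 2 of each had an EL region. Of 20 fibroblast and adipocyte markers, 8 held an EL region and Pdgfra held 4 clustered ones, 1 with a PT summit. Of 16 lung epithelial markers, 2 held an EL region, and Sftpc, a surfactant protein gene, held 1 clustered region, with a PT summit. That region lay in the Bmp1 chain and is the same 1 that was counted above with a PT summit for Bmp1, since both genes held it. Binding at a gene does not show that the gene was expressed or from which cells the chromatin came, and this was not tested.

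Chromosome 11 held the most chains. It had 25 of the 121 chains and 138 of the 601 clustered regions (23.0%), against 9.46% of all EL regions and 7.35% of the protein-coding genes, and 16.7% of its EL regions were clustered. Chromosome 8 followed with 57 clustered regions, then chromosome 2 with 55, and chromosome X had none among its 156 EL regions. Each library placed a like share of its whole list on chromosome 11, from 8.66% to 9.47% in EL and from 9.75% to 9.93% in PT, a difference of -0.659 points (exact permutation, two-sided, p = 0.1, the smallest that 3 against 3 libraries allow). At equal list lengths the groups overlapped and the difference was -0.230 points (p = 0.2 by the same exact test). Among the chains there are those of Rara, Socs3, Bahcc1, Col1a1 and Hoxb6. Without chromosome 11 the mean difference in PT share between clustered and other regions was 1.33 points instead of -0.718.

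Whether EL lists are more clustered than PT lists depended on list length. The same chaining was applied to each library alone. In the full lists 7.92%, 13.0% and 7.16% of the regions of EL replicates 1, 2 and 3 stood in chains of 4 or more (9.36% ± 3.19, SD, n = 3). In PT replicates 1, 2 and 3 it was 2.42%, 4.19% and 5.52% (4.04% ± 1.56, SD, n = 3), and the groups did not overlap. The full lists held 8588, 15770 and 7055 summits in EL and 2897, 4030 and 6033 in PT, and longer lists chain more. With 2897 summits in every list the shares were 1.80%, 1.07% and 2.17% in EL (1.68% ± 0.561, SD, n = 3) and 2.42%, 2.24% and 2.00% in PT (2.22% ± 0.208, SD, n = 3), so the groups overlapped. The difference, EL minus PT, was -0.541 points at equal lengths (exact permutation, two-sided, p = 0.2) and 5.32 points in full lists (p = 0.1 by the same exact test).

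**Figure D5:**
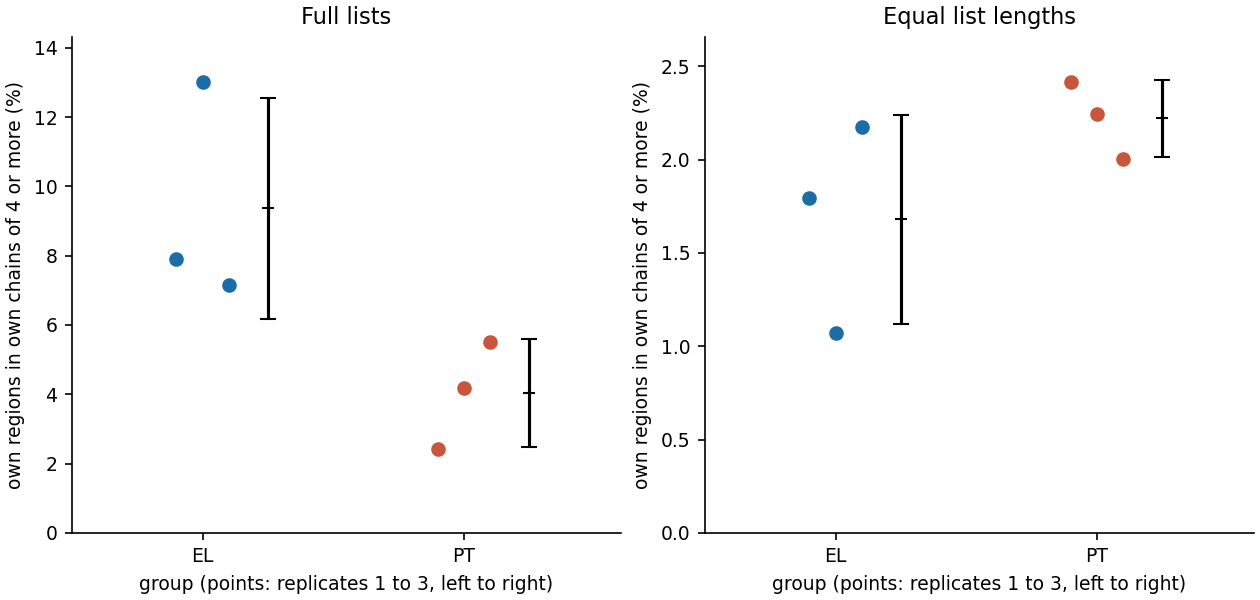
Percent of the regions of each library that stood in chains of 4 or more built from that library alone (vertical axis, from 0, on different scales), for full lists on the left and lists of equal length on the right; points are libraries and the bars beside them are mean and SD of 3. EL lies above PT in full lists. At equal lengths the groups overlap in part, with EL from 1.07% to 2.17% and PT from 2.00% to 2.42%.

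The PT libraries formed chains of their own, and most of these overlapped an EL chain. The rule of 2 libraries, applied to PT, gave 3718 regions, of which 116 (3.12%) stood in 25 chains. Of these, 17 overlapped an EL chain, which is 68.0% of the PT chains and 14.0% of the EL chains. The PT libraries entered this count alone, but the merged regions are common to both groups, and most PT regions were also EL regions. Of the 3718, 69 were clustered and 967 other EL regions with a summit in 2 PT libraries. With a summit in all 3 there were 124 clustered and 1726 other EL regions. Whether the overlap of chains exceeds what these shared regions give was not tested.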

How the data were processed

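The libraries were sequenced with paired 150 bp reads, per the labels' protocols. The submitters' processing notes name Picard, Bowtie2 2.3.4.3 and the build mm10. The peak caller and any use of the inputs are not stated in the labels or headers read here. The authors called summits separately in each library and deposited 1 list per library, in which every 1 bp summit has a score that the authors computed before deposit. All scores exceed 1.301, the −log10 of 0.05, so they may be −log10 q-values, which no label says. Scores served as ranks within a list, and as limits in 2 alternatives. No file gives the number of reads, so depth is unknown and no interval is printed.

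Only chromosomes 1 to 19, X and Y entered, with 1-based positions, and gaps were measured between region edges. Identical positions between any pair of lists numbered at most 81, so no lists were duplicates. Genes and promoters came from RefSeq tables of GRCm38.p6 with 21887 protein-coding genes, 17492 of them with a promoter entry. Names follow a rule: the 12 largest chains, the 5 largest without and the 5 largest with PT summits throughout (20 chains in all, as 2 qualified under both parts), and up to 4 genes per list for 16 lists of 474 symbols. A chain bears the name of the protein-coding gene that holds the most of its regions, which can be few of them. Ties followed symbol order, after symbols made of Gm and digits were set aside where another gene tied. The 11 chains where no gene holds any region bear the name of the nearest gene. The members and lists were chosen with earlier results of these data known. PT values were compared over the 3 PT libraries by an exact sign-flip permutation test, and libraries by an exact permutation test of 3 against 3. These p-values measure the spread between the deposited libraries. Alternatives changed merging, chaining, chain size, libraries needed, score, list length, place and libraries. The steps were tested on simulated data. Python 3.11.15, numpy 2.4.6, pandas 2.3.3 and scipy 1.17.1 were used. Sequences of regions outside promoters were not analysed here. Some genes that the naming rule gives are not reported here.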

Additional observations from a re-analysis of the deposited data

Results flagged for a closer look

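In EL replicate 3, 4 summits lay outside chromosomes 1 to 19, X and Y, on sequences that no comparison used, above the limit of 3 that a count of 0 allows. The other lists had 0 to 3 such summits.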

How the results depend on the processing

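The number of clustered regions, 601, moved by over 1.5 times under 12 of 21 settings. It was 301 with merging at 50 bp, 215 and 1299 with chaining at 5 and 25 kb, 1369 and 187 with at least 3 or 6 regions a chain, and 185 with a summit in all 3 EL libraries. It was 366 and 93 with scores of at least 5 and 10, and 48 at equal list lengths. With 1 library left out it ranged from 220 (without EL replicate 2) to 601.

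The PT share difference of -0.718 points turned positive at chaining distances of 5 kb (4.26) and 25 kb (0.924), with at least 3 regions (0.327), with all 3 EL libraries (0.0214), at scores of at least 10 (6.99), at equal list lengths (1.06), and over 5 kb from boundaries (5.94). It was also positive without chromosome 11 (1.33), inside genes (2.37) and between genes (11.4), 3 settings chosen after seeing the data. With 1 library left out it ranged from -1.97 to 0.106. The PT rank difference of -1.52 was 0.924 over 5 kb from boundaries, -11.2 within 1 kb of them, and ranged from -3.62 to 5.57 with 1 library left out. The own-chain difference of -0.541 was 5.32 in full lists and kept its sign in the other 16 settings.

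Same-numbered EL and PT libraries had correlations of their deviations of -0.0587, -0.0019 and -0.0128. Differently numbered ones had -0.0373 to 0.0574. No pairing is seen in these values, but they cannot tell whether libraries of the same number were handled together. With the replicate block, the own-chain difference was -0.541 (exact sign-flip permutation p = 0.5). No p could pass 0.05 in any setting, so no call could be lost.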
